A study of Mus musculus with 6 samples.

Results

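The genes described here encode 5 STAT transcription factors, Stat3, Stat4, Stat5a, Stat5b and Stat6. They were taken by name from the 34187 genes of the deposited matrices, and all 5 were found. Their mRNA was followed in lymphocytes and in macrophage-like, dendritic-like and tumor-like cells from subcutaneous 6694c2vTRP1 pancreatic ductal adenocarcinomas grown from 250000 injected cells in male and female C57BL/6 mice. Mice were given PBS, 26 µg of mono-IL10 (an engineered monomer of human IL-10 that joins the IL-10 receptor alpha and beta chains) or 30.6 µg of IL10/2-Trikine (the same monomer fused to a binder of the IL-2 receptor beta chain, so that 3 receptor chains are brought together), in 2 intraperitoneal doses from day 8. Tumors were taken on day 14, CD45+ cells were isolated with beads, and 5 hashtagged mice of a treatment were pooled into 1 library for droplet single-cell RNA sequencing from the 5′ end. Tumor cells were present although the isolation had selected CD45+ cells, and they served here as a non-hematopoietic comparison.

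STAT proteins wait in the cytoplasm as latent factors. When a cytokine brings its receptor chains together, JAK kinases bound to those chains phosphorylate them and then the STATs, which pair through their SH2 domains, enter the nucleus and bind short palindromic elements. IL-10 works mainly through STAT3, IL-2 and IL-15 through the closely related STAT5A and STAT5B, IL-12 through STAT4, and IL-4 and IL-13 through STAT6, and SOCS proteins and CISH are induced by STATs and feed back on the same receptors. The measurements are of STAT mRNA, and phosphorylation of the proteins is not visible in them.

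In the mouse reference GRCm38.p6, 3 of the genes lie side by side on chromosome 11. Stat5b (ENSMUSG00000020919) spans chr11:100780731-100859004 on the minus strand, Stat5a (ENSMUSG00000004043) spans chr11:100859351-100885169 on the plus strand, and Stat3 (ENSMUSG00000004040) spans chr11:100886806-100939594 on the minus strand. Stat4 (ENSMUSG00000062939) lies at chr1:51987106-52107189 and Stat6 (ENSMUSG00000002147) at chr10:127642955-127660987. The deposited counts were made on GRCm39, so these positions describe the genes and were not used for counting. Stat5a and Stat5b were the members called in lymphocytes, both in IL10/2-Trikine against PBS, and Stat3 rose in macrophage-like cells with both cytokines, so the bases just before a RefSeq transcript start are shown for these 3, in lower case with CG dinucleotides in capitals. The Stat5a stretch lies in introns of longer Stat5a transcripts, the Stat5b stretch lies within the RefSeq span of Stat5b but in no GENCODE transcript, the Stat3 stretch lies outside the gene, and bases inside annotated exons were left out.
Stat5a, chr11:100860234-100860344, plus strand: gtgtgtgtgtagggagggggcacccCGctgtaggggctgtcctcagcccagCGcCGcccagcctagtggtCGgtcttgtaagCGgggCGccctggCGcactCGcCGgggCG
Stat5b, chr11:100850725-100850831, minus strand: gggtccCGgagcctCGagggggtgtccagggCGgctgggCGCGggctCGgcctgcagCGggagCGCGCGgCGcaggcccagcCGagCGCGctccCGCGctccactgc
Stat3, chr11:100939595-100939790, minus strand: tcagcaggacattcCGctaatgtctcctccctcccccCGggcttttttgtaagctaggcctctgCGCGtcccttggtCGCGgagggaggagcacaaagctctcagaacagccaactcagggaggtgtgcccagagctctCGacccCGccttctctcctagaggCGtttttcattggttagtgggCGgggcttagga
The Stat5a stretch held 10 CG dinucleotides in 111 bases with a GC content of 73.0%, the Stat5b stretch 16 in 107 bases with 82.2%, and the Stat3 stretch 10 in 196 bases with 59.2%. The palindromic STAT elements TTCNNNGAA and TTCNNNNGAA, which read alike on both strands, had 0 matches in the 8 RefSeq windows of 250 bases before the starts of the 5 genes. Among all 32851 such windows, 7.02% held the first and 5.85% the second.

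The 3 libraries held 30528 to 55504 barcodes and 364814102 to 515236552 gene UMIs (unique molecular identifiers, each marking 1 captured mRNA), and 408 to 700 cell barcodes were shared between pairs of libraries, at most 1.58% of the smaller one. The deposited annotation placed 516 PBS, 843 mono-IL10 and 725 IL10/2-Trikine cells in T and NK clusters, of which 348, 635 and 400 carried a mouse. Other cells were named here from marker genes and are written with the ending -like: 7761, 5942 and 4908 macrophage or monocyte-like cells (macrophage-like below), 365, 179 and 182 dendritic-like cells, and 4799, 4382 and 10206 tumor epithelial-like cells (tumor-like below) carried a mouse in PBS, mono-IL10 and IL10/2-Trikine. The conventional dendritic-like cells are a cluster of 381 cells led by Plet1, Clec9a and Xcr1. A cluster of 952 cells with Cd209a and Mgl2 among its leading genes matched conventional dendritic cells best, but its score of 0.240 left it unnamed. Median UMIs per macrophage-like cell were 4932, 6109 and 2775.5, and per tumor-like cell 26189, 35859.5 and 10052.5. Values below are the UMIs of a gene in the summed cells of a mouse scaled to a common total (CPM, with the total of a mouse set to 1000000 UMIs), so that the mouse is the replicate, and n = 5 mice per treatment except for mono-IL10 NK cells, where 1 mouse had 9 cells and was left out (n = 4). Differences between treatments are log2 fold changes from edgeR, with p adjusted over all genes tested in that cell type. Their standard errors were derived here from the fold change and its F statistic. Treatment and library cannot be told apart in this design.

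The levels of the genes across 14 cell types are described here with no test because the types were defined on the same cells. Stat3 mRNA was present in every type. Only mice with at least 10 cells of a type counted, so the treatments contribute unequally to the types. No IL10/2-Trikine mouse counted for naive CD8 T cells, with 2 cells that carried a mouse. Stat3 was highest in activated CD4 T cells (1082 ± 107 CPM, SD, 5 mice, treatments pooled), regulatory T cells (992 ± 225, n = 5) and NK cells (860 ± 131, n = 14). Next were mature dendritic-like cells (676 ± 101, n = 14), γδ T or NKT cells (633 ± 78.4, n = 5) and cycling T cells (600 ± 146, n = 11). Naive CD8 T cells had 343 ± 82.4 CPM (n = 4), macrophage-like cells 288 ± 39.2 (n = 15), tumor-like cells 133 ± 9.79 (n = 15) and mast-like cells 105 ± 37.9 (n = 3). Between neighbors in this order, the means were farther apart than the larger of the 2 SDs after NK cells, after cycling T cells, after macrophage-like cells and after fibroblast-like cells, and the other 9 neighboring pairs of 13 were not.

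**Figure D1:**
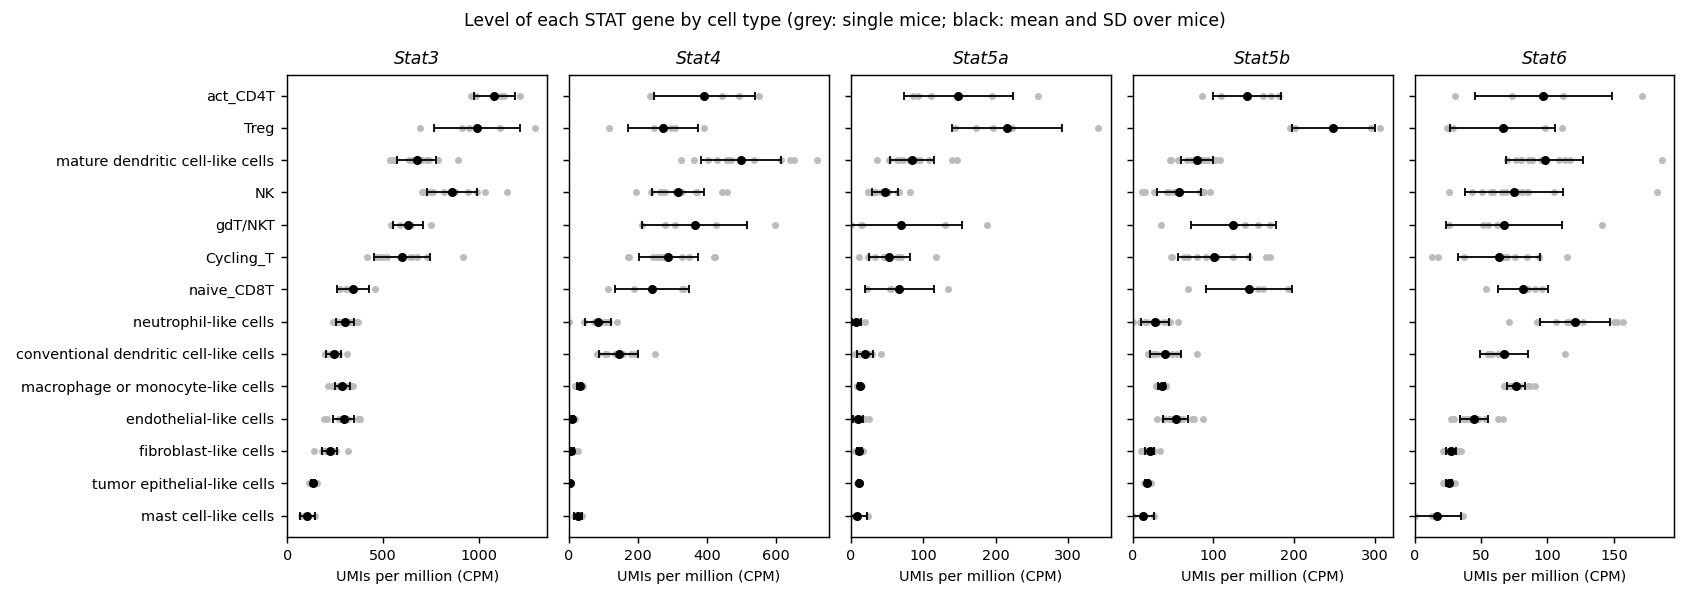
Level of each STAT gene (x axis, CPM) in 14 cell types (y axis), with single mice in grey and the mean and SD over mice in black. Stat4 runs from 499 CPM in mature dendritic-like cells to 1.27 in tumor-like cells, whereas Stat3 stays at or above 105 in every type.

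Stat4, the IL-12 transducer, had the largest ratio of its highest to its lowest cell type mean among the members. Mature dendritic-like cells had 499 ± 116 CPM, activated CD4 T cells 391 ± 147 and NK cells 315 ± 74.2, and conventional dendritic-like cells stood at 143 ± 56.0. These means also pool treatments with unequal numbers of mice, and in PBS cells alone activated CD4 T cells had 638 CPM (81 UMIs), above the mean of mature dendritic-like cells. Macrophage-like cells had 30.8 ± 7.50 CPM and tumor-like cells 1.27 ± 0.574, a class whose macrophage and lymphocyte marker levels are given with its treatment values. Neighbors separated beyond their spread after conventional dendritic-like, neutrophil-like and mast-like cells, the other 10 pairs of 13 not.

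Stat5a and Stat5b, which carry the IL-2 signal, both had their highest mean over mice, with treatments pooled, in regulatory T cells, at 215 ± 76.1 and 248.98 ± 51.9 CPM. The treatments contribute unequal numbers of mice to each type, and within PBS cells Stat5a was 276 CPM in activated CD4 T cells (35 UMIs) and 190 in regulatory T cells (21 UMIs), the reverse order. For Stat5a, activated CD4 T cells came next (148 ± 75.6), then mature dendritic-like cells (84.7 ± 30.7), and NK cells had 46.8 ± 17.7 CPM. The only separation beyond spread for Stat5a lay between NK cells and the types below them, where conventional dendritic-like, macrophage-like and tumor-like cells had 19.2, 12.05 and 10.8 CPM. For Stat5b, regulatory T cells alone stood apart from their neighbor, naive CD8 T cells had 144 ± 53.2 CPM and activated CD4 T cells 142 ± 42.05, and the level declined without a further gap through NK (57.2), macrophage-like (35.8) and tumor-like cells (17.98). Stat6 was highest in neutrophil-like cells (121 ± 26.1 CPM), had 76.3 ± 6.70 in macrophage-like cells and 26.0 in tumor-like cells, and its neighbors separated only below endothelial-like cells (44.9).

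The genes most like each member across the 14 types were named by Pearson's r of log2(mean CPM + 1) among 10761 genes, as a description over types that share libraries and mice. Stat5a and Stat5b followed each other with r = 0.916, and the least alike pair was Stat5a and Stat6 with 0.5001. Closest to Stat4 were Itga4 (an integrin subunit, 0.965), Selplg (a selectin ligand, 0.964) and Ankrd44 (0.958). Closest to Stat5a were Rabgap1l (0.976), Aebp2 (0.969) and Pdcd1 (the PD-1 receptor, 0.942), and closest to Stat5b were Cd247 (the T cell receptor zeta chain, 0.951), Sntb1 (0.948) and Cd2 (0.947). Stat3 was closest to Birc2 (0.944), Kdm2b (0.932) and Tnfrsf18 (0.932), and Stat6 to Ccdc88b (0.942), N4bp2l1 (0.940) and Srsf5 (0.938).

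The first treatment question was whether lymphocytes exposed to a STAT3 cytokine, or to one that adds STAT5, contained different amounts of STAT mRNA. In T and NK cells together, Stat5a and Stat5b were lower in mice given IL10/2-Trikine, whereas Stat3 and Stat6 did not pass the test in any comparison. Stat5a was 81.6, 86.9, 127, 84.5 and 161 CPM in the 5 PBS mice, 64.3, 80.6, 102, 76.2 and 58.4 in the mono-IL10 mice, and 51.5, 75.1, 48.3, 34.0 and 62.1 in the IL10/2-Trikine mice. Every IL10/2-Trikine mouse was below every PBS mouse, and the mono-IL10 mice lay between and overlapped both. Overlap of groups was read for the members only, here and below, and the share of all genes without overlap was not counted. Stat5a fell by 0.80 ± 0.24 (log2, SE) in IL10/2-Trikine against PBS (adjusted p = 0.0316), on 130, 231 and 70 UMIs in PBS, mono-IL10 and IL10/2-Trikine.

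Stat5b was 127, 105, 139, 99.4 and 64.3 CPM in PBS, 117, 121, 146, 145 and 77.9 in mono-IL10, and 74.9, 56.9, 40.2, 20.4 and 78.4 in IL10/2-Trikine. The lowest PBS mouse and the lowest mono-IL10 mouse lay within the IL10/2-Trikine range, and the other mice of those groups were above it. Stat5b fell by 0.86 ± 0.26 against PBS (adjusted p = 0.0358) and by 1.06 ± 0.23 against mono-IL10 (adjusted p = 0.0038), on 138, 388 and 70 UMIs. Thus 2 of 5 members passed in IL10/2-Trikine against PBS, where 9.49% of 4595 genes passed, 1 of 5 in IL10/2-Trikine against mono-IL10, where 8.84% passed, and 0 of 5 in mono-IL10 against PBS, where 1.11% passed. In that last comparison edgeR gave an unadjusted p below 0.05 for 1 member, and DESeq2 called 0. The median log2 fold change of the 5 members in IL10/2-Trikine against PBS was −0.40, beside −0.01 over all genes tested.

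When 1 of the 10 mice of the comparison was left out in turn, Stat5a passed in 4 of 10 fits (log2 fold changes from −0.99 to −0.66, adjusted p from 0.0265 to 0.0820) and Stat5b in 3 of 10 (from −1.03 to −0.72, adjusted p from 0.0217 to 0.0947). Stat5a missed without PBS mouse 3 or 5 or without IL10/2-Trikine mouse 1, 3, 4 or 5, and Stat5b missed without PBS mouse 1, 2, 3 or 4 or without IL10/2-Trikine mouse 2, 3 or 4. The fall of Stat5b against mono-IL10 passed in 10 of 10 such fits.

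**Figure D2:**
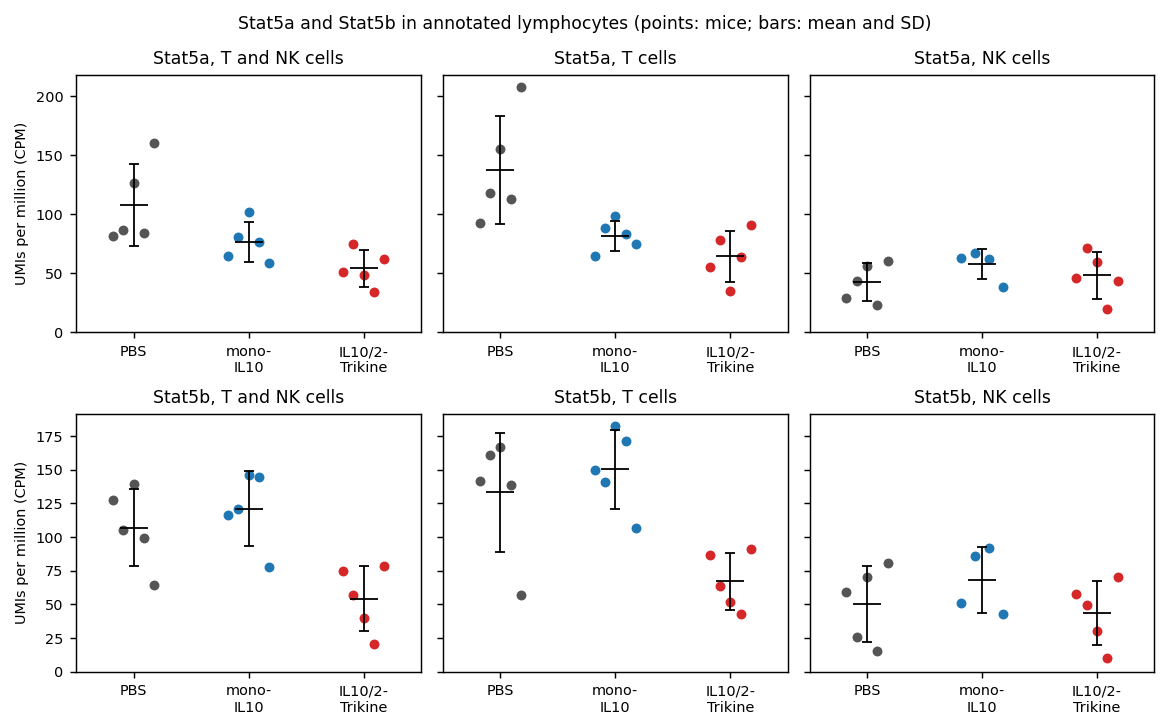
Stat5a and Stat5b (y axis, CPM) in T and NK cells, T cells and NK cells by treatment (x axis), with points for mice and bars for the mean and SD. In T cells the IL10/2-Trikine mice lie below every PBS mouse for Stat5a and below every mono-IL10 mouse for Stat5b, and in NK cells the treatments overlap.

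In T cells alone the same genes passed. Stat5a was 92.5, 118, 156, 113 and 208 CPM in PBS, 65.0, 88.5, 98.3, 83.2 and 74.7 in mono-IL10 and 55.3, 77.9, 34.7, 64.1 and 91.0 in IL10/2-Trikine. PBS and IL10/2-Trikine did not overlap, but their nearest mice, at 92.5 and 91.0 CPM, were barely apart. Against PBS, Stat5a fell by 0.91 ± 0.27 with IL10/2-Trikine (adjusted p = 0.0325), on 39 UMIs in IL10/2-Trikine. The difference of mono-IL10 from PBS, −0.67 ± 0.20, did not pass (adjusted p = 0.0908). Stat5b was 142, 161, 167, 139 and 56.7 CPM in PBS, 150, 141, 182, 171 and 107 in mono-IL10 and 86.9, 63.3, 52.1, 42.8 and 91.0 in IL10/2-Trikine. It fell by 0.92 ± 0.27 against PBS (adjusted p = 0.0341) and by 1.10 ± 0.25 against mono-IL10 (adjusted p = 0.0045), and IL10/2-Trikine and mono-IL10 mice did not overlap. The share of all tested genes that passed was 1.72% in mono-IL10 against PBS, 8.97% in IL10/2-Trikine against PBS and 12.3% in IL10/2-Trikine against mono-IL10. Leaving out 1 mouse at a time kept Stat5a against PBS in 5 of 10 fits (lost without PBS mouse 3 or 5 or IL10/2-Trikine mouse 1, 2 or 3), Stat5b against PBS in 3 of 10 (lost without PBS mouse 1, 2, 3 or 4 or IL10/2-Trikine mouse 2, 3 or 4) and Stat5b against mono-IL10 in 10 of 10.

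The makeup of the lymphocytes moved with these differences. NK clusters made up 16.7 to 37.5% of the annotated cells of a PBS mouse, 25.6 to 37.2% in mono-IL10 and 40.3 to 64.6% in IL10/2-Trikine, and naive T cells 7.32 to 25.0%, 17.02 to 34.4% and 0 to 1.49%. Within the T cell clusters, the summed level of 8 NK markers, all detected, was 401 to 775 CPM in PBS mice, 754 to 1367 in mono-IL10 mice and 1863 to 2980 in IL10/2-Trikine mice, while that of 7 T cell markers, all detected, was 2569 to 3291, 3712 to 4235 and 1580 to 2249. NK-marked cells were counted only in the annotated cycling T cluster, and other T clusters were not examined for them. In that cluster 12 of 43, 14 of 99 and 59 of 94 cells with a mouse were NK-marked. Such cells had more UMIs of Ncr1, Klrb1c, Klre1, Tyrobp and Fcer1g than of Cd3e, Cd3d, Cd3g, Trac and Trbc2. Without those cells the T cell differences were −0.68 for Stat5a (adjusted p = 0.259) and −0.68 for Stat5b (adjusted p = 0.234) against PBS, and −0.78 for Stat5b against mono-IL10 (adjusted p = 0.0930), and no member passed. Without all cycling clusters, which left 3 IL10/2-Trikine mice, they were −0.37 (adjusted p = 0.716), −0.77 (0.415) and −0.88 (0.251).

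Had each annotated cluster kept its level over all mice while its share of UMIs differed as observed, Stat5a in T and NK cells would have been 13.4 CPM lower in IL10/2-Trikine than in PBS, 24.9% of the observed difference of −53.9 CPM. For Stat5b the same sum was −28.3 of −52.9 CPM (53.5%) against PBS and −24.0 of −67.1 CPM (35.9%) against mono-IL10. With the cycling T cluster divided into NK-marked and other cells, an alternative added after the values had been seen, these shares were 26.0%, 65.3% and 50.2%. A lower level within cells and a different mix of cells cannot be separated further at these counts.

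Levels within single clusters, summed over mice, rested on few UMIs. In regulatory T cells Stat5a was 190, 199 and 171 CPM (21, 28 and 9 UMIs) and Stat5b 271, 269 and 171 CPM (30, 38 and 9 UMIs) in PBS, mono-IL10 and IL10/2-Trikine. In activated CD4 T cells Stat5a was 276, 158 and 161 CPM (35, 57 and 10 UMIs) and Stat5b 126, 158 and 48.4 CPM (16, 57 and 3 UMIs). The γδ T or NKT cluster had 125, 14.1 and 42.8 CPM of Stat5a on 21, 3 and 3 UMIs. Among cycling T cells without NK marking, Stat5b was 154, 139 and 129 CPM (20, 82 and 15 UMIs) and Stat5a 108, 44.0 and 60.3 CPM (14, 26 and 7 UMIs). Each of these is a value of 1 library, with no test.

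In NK cells only Stat3 and Stat4 had enough counts to be tested, and 0 of 2 passed in any comparison by edgeR or DESeq2, with 1 unadjusted edgeR p below 0.05, where 0.297%, 4.42% and 2.38% of 2355 genes passed in mono-IL10 against PBS, IL10/2-Trikine against PBS and IL10/2-Trikine against mono-IL10. Stat4 was 315 ± 70.6, 360 ± 61.6 and 251 ± 60.1 CPM in PBS, mono-IL10 and IL10/2-Trikine, and IL10/2-Trikine against mono-IL10 differed by −0.52 ± 0.17 (adjusted p = 0.0985). Stat3 was 886 ± 167, 879 ± 88.3 and 786 ± 55.0 CPM. Stat5a, 42.6 ± 16.2, 57.7 ± 12.8 and 48.2 ± 19.5 CPM on 16, 63 and 31 UMIs, and Stat5b, 50.3 ± 28.3, 67.9 ± 24.5 and 43.5 ± 23.7 CPM on 16, 73 and 30 UMIs, overlapped between all treatments.

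For the other members in T and NK cells, Stat3 was 730 ± 78.5, 718 ± 49.5 and 751 ± 79.0 CPM in PBS, mono-IL10 and IL10/2-Trikine, with differences of at most 0.06 (log2). Stat4 was 380 ± 45.3, 298 ± 57.7 and 279 ± 49.5 CPM, and IL10/2-Trikine against PBS differed by −0.40 ± 0.15 (adjusted p = 0.0902). Stat6, at 61.7 ± 9.57, 69.8 ± 13.6 and 74.5 ± 21.2 CPM, also overlapped between treatments.

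In macrophage-like cells, which carry the IL-10 receptor, Stat3 rose with both cytokines and Stat6 with mono-IL10. Stat3, the transducer of IL-10, was 236, 212, 247, 268 and 268 CPM in PBS mice, 335, 343, 280, 325 and 328 in mono-IL10 mice and 315, 284, 325, 282 and 278 in IL10/2-Trikine mice. All 5 mice of each treated group were above all 5 PBS mice, and the treated groups overlapped. Stat3 rose by 0.47 ± 0.07 (log2, SE) with mono-IL10 (adjusted p = 4.2e-05) and by 0.27 ± 0.07 with IL10/2-Trikine (adjusted p = 0.0106). The treated groups differed by −0.20 ± 0.07, which did not pass (adjusted p = 0.0644).

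Stat6, which mediates IL-4 signaling and alternative activation in macrophages, was 72.8, 67.2, 77.9, 68.5 and 72.0 CPM in PBS, 75.8, 86.8, 77.4, 72.4 and 90.5 in mono-IL10 and 72.5, 79.7, 85.0, 74.5 and 72.0 in IL10/2-Trikine. The groups overlapped, and Stat6 rose by 0.24 ± 0.06 with mono-IL10 (adjusted p = 0.0063). Trimmed-mean scaling raised all mono-IL10 differences from PBS in macrophage-like cells by 0.08 (log2) above plain CPM. It shifted all differences of IL10/2-Trikine from mono-IL10 by −0.08. Stat5b was 33.7 ± 3.61, 36.9 ± 4.81 and 36.8 ± 2.90 CPM (mono-IL10 against PBS 0.22 ± 0.09, adjusted p = 0.0746), Stat4 37.1 ± 2.95, 28.5 ± 7.88 and 26.9 ± 7.19 CPM (IL10/2-Trikine against PBS −0.44 ± 0.18, adjusted p = 0.0993) and Stat5a 11.8 ± 2.02, 11.2 ± 2.29 and 13.1 ± 1.55 CPM. Thus 2 of 5 members passed with mono-IL10, 1 of 5 with IL10/2-Trikine and 0 of 5 between the cytokines, where 26.6%, 18.1% and 12.0% of 12089 genes passed. Between the cytokines 2 members had an unadjusted edgeR p below 0.05, and DESeq2 called 1, Stat3. The median log2 fold change of the 5 members was 0.22 with mono-IL10 and 0.12 with IL10/2-Trikine, beside −0.02 and 0.01 over all genes tested. Each of the 3 called differences passed in 10 of 10 fits that left out 1 mouse of the comparison. Stat6 with mono-IL10 lost its call when the summed counts of each mouse were thinned to the smallest total among the mice (0.30, adjusted p = 0.0638). Stat3 with IL10/2-Trikine lost its call without a low-count filter (0.22, adjusted p = 0.0511).

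**Figure D3:**
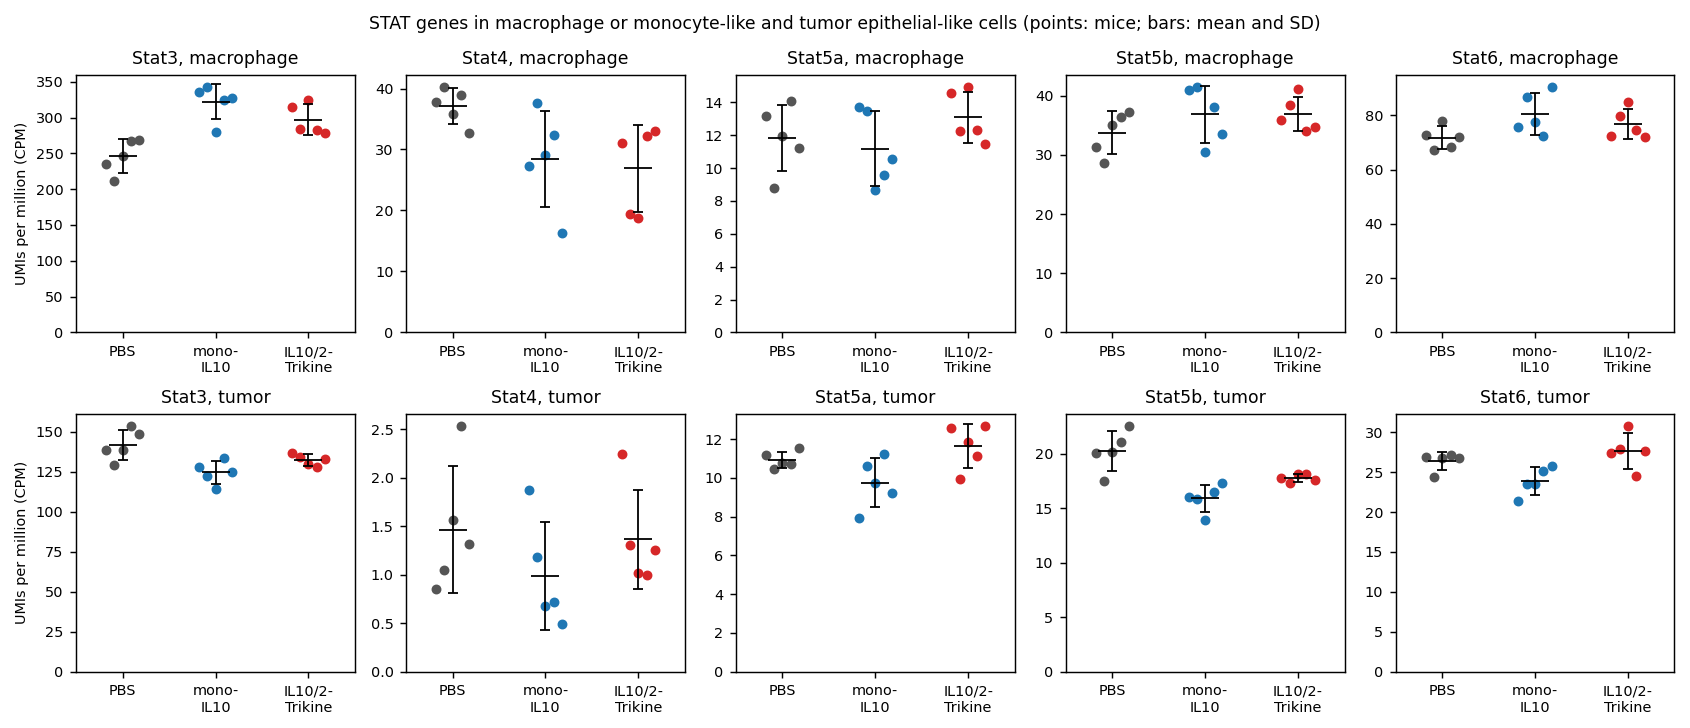
STAT genes (y axis, CPM, a separate scale in each panel) in macrophage or monocyte-like cells (top) and tumor epithelial-like cells (bottom) by treatment (x axis), with points for mice and bars for the mean and SD. Macrophage-like Stat3 means are 246, 322 and 297 CPM in PBS, mono-IL10 and IL10/2-Trikine, and tumor-like Stat5b means are 20.3, 15.9 and 17.8.

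The largest cluster of the macrophage-like class was a different one in each library, led by Cx3cr1 and Hpgds in PBS, by Cd163 and Nrg1 in mono-IL10 and by Pf4 and Gpnmb in IL10/2-Trikine. Stat3 was therefore read within clusters, in plain CPM over cells of all mice. It was above PBS in 12 of 13 clusters for each treatment, with a median log2 ratio of 0.40 for mono-IL10 and 0.25 for IL10/2-Trikine. In PBS, mono-IL10 and IL10/2-Trikine it was 255, 405 and 385 CPM in the Cx3cr1 and Hpgds cluster, 259, 342 and 347 in the Cd163 and Nrg1 cluster, 219, 307 and 269 in the Pf4 and Gpnmb cluster, and 194, 283 and 259 in a cluster led by Il10 and Tnf. The exception was a cluster led by Ifitm6, Ms4a4c, Chil3 and the monocyte marker Ly6c2, with 351, 305 and 262 CPM. The difference expected from cluster shares alone was 19.9 of 76.2 CPM (26.1%) for mono-IL10 and 7.53 of 51.0 CPM (14.8%) for IL10/2-Trikine. Stat6 was above PBS in 9 of 13 clusters with mono-IL10, and 3.18 of 8.90 CPM (35.8%) of its difference was expected from cluster shares alone. Of the members not called with mono-IL10, Stat5b was above PBS in 10 of 13 clusters, Stat5a in 8 and Stat4 in 3. The share of all genes above PBS in these clusters was not counted.

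**Figure D4:**
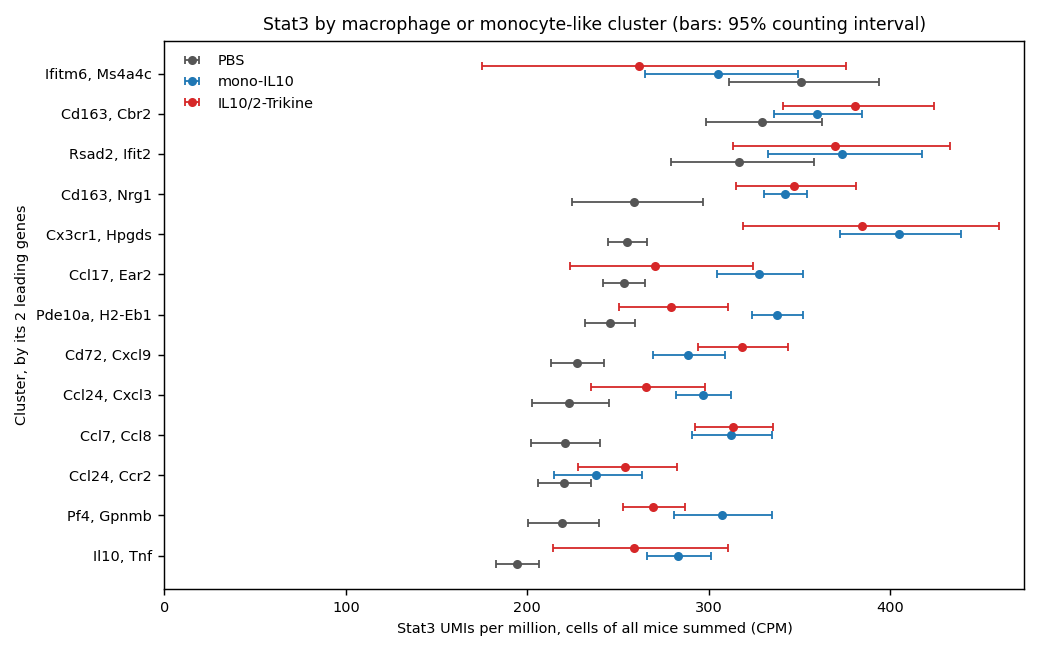
Stat3 (x axis, CPM over the cells of all mice summed) in 13 macrophage or monocyte-like clusters (y axis, named by their 2 leading genes) by treatment, with 95% intervals that cover counting error only. PBS is lowest in 12 of 13 clusters, and in the cluster led by Ifitm6 and Ms4a4c it is highest.

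The IL-10 receptor is also found on dendritic cells. In dendritic-like cells, Stat3 was 368, 450, 485, 461 and 396 CPM in PBS, 519, 649, 570, 606 and 514 in mono-IL10 and 488, 579, 500, 530 and 686 in IL10/2-Trikine. Neither treated group overlapped PBS, yet the differences of 0.47 ± 0.13 (adjusted p = 0.127) and 0.32 ± 0.14 (adjusted p = 0.453) did not pass. By edgeR no member passed in any comparison, with 3, 2 and 0 unadjusted p below 0.05, and DESeq2 called 1, 0 and 0 (Stat3 with mono-IL10, adjusted p = 0.0228), where 0.600%, 0.308% and 0.0486% of 6169 genes passed in mono-IL10 against PBS, IL10/2-Trikine against PBS and IL10/2-Trikine against mono-IL10. With mono-IL10, Stat4 differed by 0.52 ± 0.17 (adjusted p = 0.205) and Stat5b by 0.61 ± 0.19 (adjusted p = 0.204). Mature cells, in which Stat3 and Stat4 were higher than in conventional ones, made up 218 of 365, 122 of 179 and 147 of 182 dendritic-like cells, and within them Stat3 was 609 ± 67.5, 778 ± 84.2 (n = 4) and 660 ± 82.8 CPM. The unnamed cluster with Cd209a and Mgl2 is in none of these values. Tumor markers in the dendritic-like class summed to 39.7 to 556, 8.79 to 565 and 170 to 675 CPM over mice, NK markers to 54.8 to 91.3, 91.7 to 448 and 122 to 479 CPM, and neutrophil markers to 635 to 1860, 111 to 523 and 612 to 1523 CPM, lower in every mono-IL10 mouse than in any PBS mouse. Their part in these values was not tested.

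In tumor-like cells Stat5b was the member that passed. It was 20.1, 17.5, 20.2, 21.1 and 22.5 CPM in PBS, 16.02, 15.8, 13.9, 16.5 and 17.3 in mono-IL10 and 17.7, 17.3, 18.1, 18.1 and 17.6 in IL10/2-Trikine. All mono-IL10 mice were below all PBS mice and below all IL10/2-Trikine mice, whose range lay at the lower edge of PBS. Stat5b fell by 0.24 ± 0.06 with mono-IL10 (adjusted p = 0.0185), a call lost without PBS mouse 5 (−0.20, adjusted p = 0.0506) and kept in the other 9 of 10 fits, and IL10/2-Trikine against PBS differed by −0.16 ± 0.06 (adjusted p = 0.0565). Trimmed-mean scaling raised all mono-IL10 differences from PBS in tumor-like cells by 0.11 (log2) above plain CPM. The numbers passing were 1, 0 and 0 of 5 members in mono-IL10 against PBS, IL10/2-Trikine against PBS and IL10/2-Trikine against mono-IL10, where 5.71%, 21.7% and 32.0% of 14871 genes passed. In each of the last 2 comparisons 1 member had an unadjusted edgeR p below 0.05, and DESeq2 called 0.

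Within the 8 tumor-like clusters, Stat5b was below PBS in 8 of 8 for each treatment, with median log2 ratios of −0.25 and −0.22, for example 31.2, 24.8 and 24.3 CPM in a cluster led by Ttr and Lcn2 and 20.6, 15.8 and 17.01 CPM in one led by the mitotic genes Ube2c and Cenpf. Stat3, which was not called, was above PBS in 0 of 8 clusters with mono-IL10 (median −0.17) and in 1 of 8 with IL10/2-Trikine (median −0.11). Stat6 was above PBS in 1 of 8 with mono-IL10 and 4 of 8 with IL10/2-Trikine, Stat5a in 3 and 4 of 8, and Stat4 in 2 and 4 of 8. These cluster values are plain CPM, without the scaling that raised mono-IL10 differences from PBS by 0.11. The share of all genes below PBS in the clusters was not counted. Over mice, Stat3 was 142 ± 9.46, 125 ± 7.02 and 132 ± 3.64 CPM (mono-IL10 against PBS −0.08, adjusted p = 0.318), Stat5a 10.9 ± 0.426, 9.75 ± 1.26 and 11.7 ± 1.13, and Stat6 26.4 ± 1.14, 23.9 ± 1.71 and 27.6 ± 2.23. Stat4, at 1.46 ± 0.654, 0.988 ± 0.555 and 1.36 ± 0.510 CPM, was the lowest member. In the same class summed macrophage markers were 141 to 274, 59.98 to 131 and 119 to 610 CPM over mice, T cell markers 9.08 to 15.9, 10.2 to 20.8 and 12.1 to 24.5, and NK markers 2.06 to 3.46, 1.96 to 5.397 and 7.14 to 38.5. Their part in these values was not tested.

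**Figure D5:**
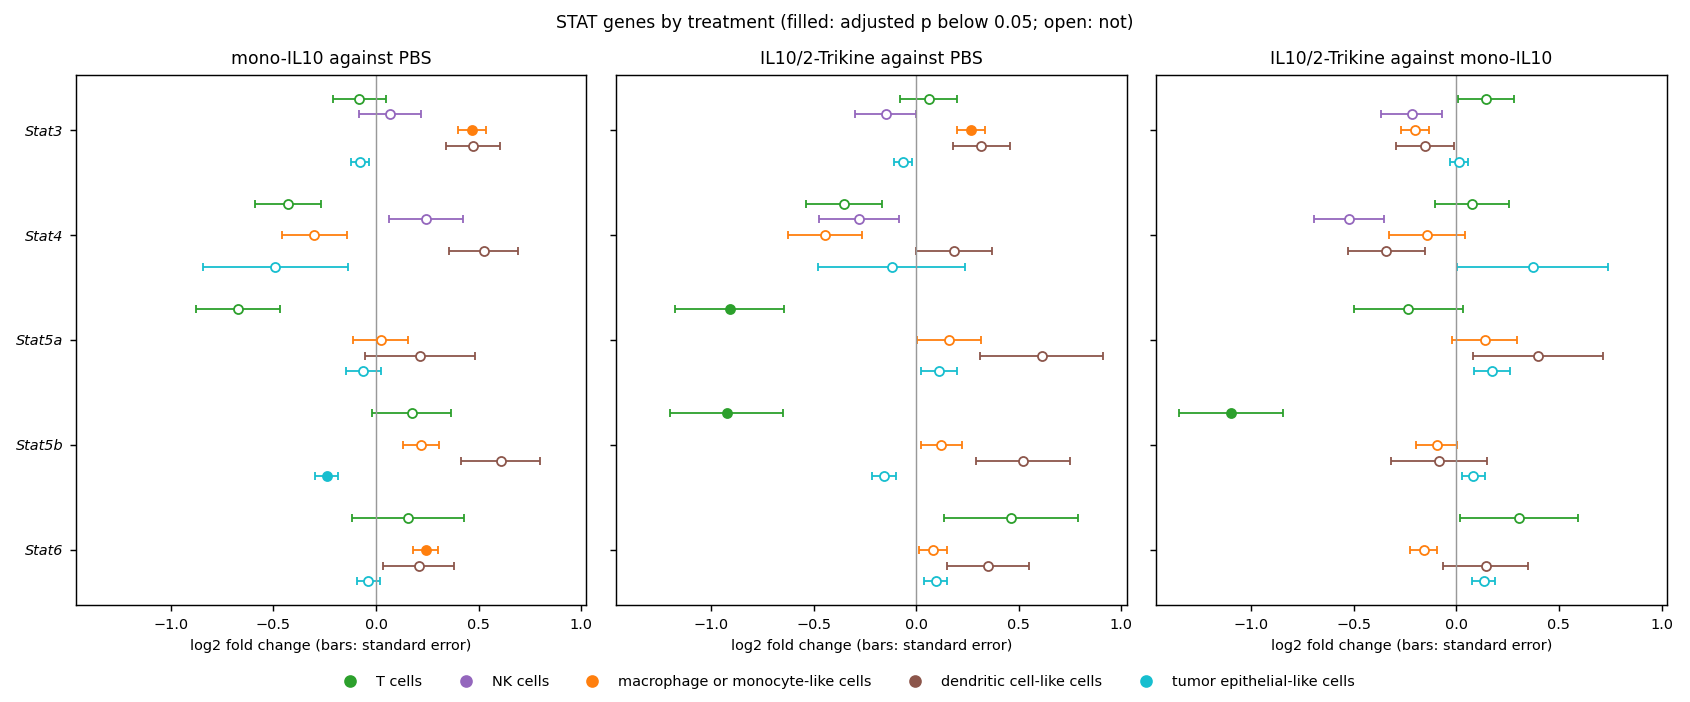
Log2 fold changes (x axis, bars are standard errors) of the STAT genes (y axis) in 5 cell populations for the 3 comparisons (panels), filled where the adjusted p was below 0.05. Filled points are Stat5a and Stat5b in T cells to the left of 0, Stat3 and Stat6 in macrophage-like cells to the right, and Stat5b in tumor-like cells to the left.

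Whether a member responded differently in 2 cell types was tested directly, by exact two-sided permutation of mice on the within-mouse difference in log2 CPM, in 45 tests over NK against T cells, T and NK against macrophage-like cells, and tumor-like against macrophage-like cells. None passed after adjustment over the 45, 13 had an unadjusted p below 0.05, and 7 reached the smallest p that 5 against 5 or 4 against 5 mice allow, 0.00794 (adjusted p = 0.0510). Without IL10/2-Trikine mouse 3, 8 of the tests passed. A larger difference cannot lower p below that smallest value, so whether any test passed depended on how many were at or near it. Neither count therefore shows that the responses were alike or that 1 mouse decided them. The difference of Stat3 from PBS in tumor-like cells minus that in macrophage-like cells was −0.58 with mono-IL10 and −0.37 with IL10/2-Trikine, and that of Stat5b −0.47 and −0.31. Stat5b in T and NK cells against macrophage-like cells differed by −1.18 between IL10/2-Trikine and mono-IL10. Stat5a in NK cells against T cells differed by 1.12 for IL10/2-Trikine against PBS and by 1.09 for mono-IL10 against PBS, on 16 UMIs in NK cells of PBS mice, too few for the edgeR fit. With a prior count of 0.5 in place of 2, the first of these had p = 0.0238 by the same exact test (adjusted p = 0.0824), and the other 6 of the 7 kept an unadjusted p of 0.00794. Stat5b comparisons of NK and T cells were not among the 7.

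Around the STATs, genes of the pathway were counted in lists of receptor chains (14 genes), inhibitors (16) and known targets of STAT3 (6), STAT4 (6), STAT5 (8) and STAT6 (7). In T and NK cells, mono-IL10 against PBS, where 1.11% of all genes passed, changed 0 of 8 receptor chains and 0 of 6 STAT3 targets. The feedback inhibitor Cish, a STAT5 target, fell by 0.87 ± 0.19 (116 ± 21.6 to 60.9 ± 12.6 CPM, adjusted p = 0.0207), the 1 change among 10 inhibitors. With IL10/2-Trikine against PBS, where 9.49% of all genes passed, the kinase Jak2 fell by 0.87 ± 0.19, and of 8 receptor chains 3 fell, Il7r by 1.40 ± 0.24, Il21r by 0.59 ± 0.16 and Ifngr1 by 0.37 ± 0.11, and 1 rose, the IL-2 and IL-15 receptor beta chain Il2rb, by 0.42 ± 0.10 (859.5 ± 137 to 1133 ± 95.8 CPM). The median of the receptor chains was −0.37, beside −0.01 over all genes tested. Of 10 inhibitors Socs1 fell, by 0.86 ± 0.22, and of 6 STAT5 targets Gzmb rose, by 1.36 ± 0.19 (764 ± 238 to 1961 ± 292 CPM), as it did with mono-IL10, by 1.26 ± 0.19. The median of these targets was −0.40 with IL10/2-Trikine and −0.39 with mono-IL10, beside −0.01 over all genes tested in each. Of 6 STAT4 targets 1 fell with IL10/2-Trikine against PBS, Hopx, by 0.78 ± 0.23 (480 ± 240.2 to 267 ± 54.7 CPM), and 0 passed with mono-IL10 or between the cytokines. Gzmb encodes granzyme B and belongs to a STAT5 target list that the study took from the literature and scored in these samples. Its rise is therefore not evidence independent of that score. The increase of NK marker levels given above moved with these values too.

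In T cells alone, 2 of 6 STAT5 targets rose in IL10/2-Trikine against mono-IL10, Il2ra, the IL-2 receptor alpha chain, by 0.92 ± 0.31 (290 ± 157 to 551 ± 189 CPM, adjusted p = 0.0485) and Cish by 0.73 ± 0.24 (57.2 ± 10.4 to 93.1 ± 29.6 CPM, adjusted p = 0.0484), with a list median of 0.34 beside −0.01 over all genes tested, of which 12.3% passed. Cish had fallen with mono-IL10 from 127 ± 29.8 CPM in PBS (−1.09 ± 0.21, adjusted p = 0.0034), and its mean with IL10/2-Trikine was below that of PBS. Against PBS, 1 of 6 STAT5 targets rose with IL10/2-Trikine, Gzmb by 1.31 ± 0.19 (list median −0.09, where 8.97% of genes passed), and with mono-IL10 Gzmb rose by 1.29 ± 0.18 and Cish fell (list median −0.43, where 1.72% passed). Among the receptor chains, IL10/2-Trikine against mono-IL10 gave a rise of Il2rb by 0.72 ± 0.12 and falls of Il7r by 0.78 ± 0.24 and Ifngr1 by 0.47 ± 0.12. In the same T cells, summed NK markers were 754 to 1367 CPM over mono-IL10 mice and 1863 to 2980 over IL10/2-Trikine mice, and 7 regulatory T cell markers, all detected and with Il2ra itself among them, 1835 to 2930 and 2223 to 3348. Their part in these values was not tested. In NK cells, Gzmb rose by 1.20 ± 0.26 with IL10/2-Trikine against PBS, 1 of 5 STAT5 targets (list median −0.24, where 4.42% of genes passed). Hopx fell by 0.71 ± 0.19 against mono-IL10, 1 of 4 STAT4 targets (list median −0.26, where 2.38% passed). Summed NK markers within NK cells were 1179 to 3598, 3729 to 4367 and 5906 to 12044 CPM over PBS, mono-IL10 and IL10/2-Trikine mice, and their part was not tested.

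In macrophage-like cells 3 of 6 STAT3 targets rose with mono-IL10, and none fell (median of the list 0.20, beside −0.02 over all genes tested, of which 26.6% passed). The feedback inhibitor Socs3 rose by 0.52 ± 0.08 (325 ± 29.6 to 443 ± 26.5 CPM), the transcription factor Nfil3 by 0.59 ± 0.11 and Fosl2 by 0.32 ± 0.08. With IL10/2-Trikine 1 of 6 rose (list median 0.02, all genes 0.01, of which 18.1% passed), Fosl2 by 0.25 ± 0.08, and Socs3 was lower than with mono-IL10, by 0.57 ± 0.08 on the log2 scale, at 318 ± 21.2 CPM. Of 13 receptor chains, 2 rose and 0 fell with mono-IL10 (list median 0.05), and 3 rose and 2 fell with IL10/2-Trikine (list median −0.03). The IL-4 receptor chain Il4ra rose by 1.23 ± 0.10 with mono-IL10 (163 ± 17.1 to 364 ± 39.8 CPM) and by 1.06 ± 0.10 with IL10/2-Trikine, and Il7r fell by 0.82 ± 0.15 with IL10/2-Trikine. The kinase Jak3 rose by 0.95 ± 0.09 and 0.88 ± 0.10, and Jak2 fell by 0.24 ± 0.08 with IL10/2-Trikine. Of 6 STAT6 targets tested, Arg1 (arginase) rose by 1.13 ± 0.17 and 0.81 ± 0.17 and Mrc1 (the mannose receptor) by 1.0 ± 0.12 and 1.14 ± 0.12. The chemokine Ccl22 fell by 3.36 ± 0.29 and 3.26 ± 0.37, from 14.7 ± 3.80 CPM in PBS to 1.37 ± 0.857 and 1.25 ± 0.919. Retnla fell by 3.87 ± 0.97 with mono-IL10, from 64.8 ± 72.7 CPM, an SD above the mean, to 4.09 ± 3.25. The list medians were −0.06 with mono-IL10 and 0.71 with IL10/2-Trikine. Cish fell with both, by 0.46 ± 0.11 and 0.78 ± 0.13. Of 5 STAT4 targets tested 1 rose and 1 fell with each treatment against PBS. Between the cytokines, where 12.0% of genes passed, Tbx21 rose (0.711 ± 0.409 to 2.42 ± 1.16 CPM), as did Il18rap (7.34 ± 1.71 to 11.9 ± 2.21 CPM), and Furin fell. T cell and NK marker levels in this class, given next, were also higher with IL10/2-Trikine, and their part was not tested. Il2ra, Il2rb and Gzmb were called higher with IL10/2-Trikine at 13.9, 23.3 and 31.2 CPM, and summed T cell markers in the same class were 19.7 to 32.0, 8.80 to 25.9 and 41.3 to 76.3 CPM and NK markers 18.04 to 33.8, 4.16 to 19.0 and 26.2 to 52.1 CPM over PBS, mono-IL10 and IL10/2-Trikine mice.

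In dendritic-like cells Il4ra rose with mono-IL10 by 0.80 ± 0.18 (adjusted p = 0.0428), 1 of 13 receptor chains tested where 0.600% of all genes passed, and none of 5 STAT3 targets passed in any comparison. Of 7 STAT5 targets, Gzmb rose with mono-IL10 by 2.12 ± 0.43 (16.6 ± 10.01 to 75.8 ± 54.8 CPM, adjusted p = 0.0253) and with IL10/2-Trikine by 2.95 ± 0.44 (to 124 ± 53.01 CPM, adjusted p = 0.0033). NK marker levels in this class, given above, moved in the same direction. In tumor-like cells, where 5.71% of all genes passed with mono-IL10, 1 of 16 inhibitors did so, Socs1, which rose by 0.61 ± 0.14, and 1 of 6 STAT3 targets, Junb, which fell by 0.19 ± 0.05. Of 14 receptor chains 1 fell, Il10ra, by 1.10 ± 0.31 (1.96 ± 0.567 to 0.851 ± 0.419 CPM, adjusted p = 0.0481). Macrophage marker levels in this class, given above, moved in the same direction. With IL10/2-Trikine against PBS, 6 of 16 inhibitors passed (list median 0.02, beside 2.26e-05 over all genes tested, of which 21.7% passed). They included Pias3, which rose by 0.41 ± 0.07, and Pias4 and the phosphatase Ptpn11, which fell by 0.33 ± 0.05 and 0.32 ± 0.04. Jak1 fell by 0.21 ± 0.05 and Jak3 rose by 0.22 ± 0.06. Of 14 receptor chains 2 rose and 1 fell, and Il2rb rose by 1.20 ± 0.37 to 2.63 ± 1.39 CPM. Gzmb, 1 of 7 STAT5 targets, rose by 2.07 ± 0.66 to 5.23 ± 2.64 CPM. NK marker levels in this class, given above, also rose.

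Stat5a and Stat5b are closely related in sequence. Of all 50-base stretches of the GENCODE transcripts on GRCm38, 608 were in both genes, 8.21% of those of Stat5a or 10.98% of those of Stat5b, and 304 of all 90-base stretches (3.98% and 5.49%), and none were shared with or among the other members. How the deposited counts treat reads within such stretches was not tested, and the split between Stat5a and Stat5b is uncertain to that extent.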

How the data were processed

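For each treatment library the authors deposited 1 matrix of UMI counts, for genes and hashtags, which they made with Cell Ranger 9.0.1 on GRCm39 and left unnormalized. They also deposited a table of 9942 annotated T and NK cells. Per the file headers it holds total counts and detected genes for each cell, the mitochondrial percent, the hashtag mouse and a cluster name, 1 of 12. Of these, 7858 belong to a group with no sample and were not used. For the 2084 remaining cells the total counts served only as a check, and they equaled the matrix totals in 94.9 to 97.9% of the cells of a library. The percent and the detected genes were not used. The submitters' processing notes name Seurat 5.1.0 and DESeq2 1.46.0.

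All other barcodes with at least 1000 genes and at most 10% mitochondrial UMIs were assigned to mice from their hashtags (HTODemux, Seurat 5.3.0, quantile 0.99). Barcodes with more than 1 hashtag (8.64 to 13.3% of those passing) were left out. The rest were grouped with 2000 variable genes, 40 components and 60 k-means clusters (scikit-learn 1.9.0), and clusters were named from marker lists at a score of at least 0.25 with at least 3 markers detected and a check of the 10 leading genes. A cluster was named only if no other lineage exceeded 0.2 of its score, a limit lowered from 0.25 after a macrophage-named cluster was seen to be led by T cell genes. Unnamed clusters held 27.6 to 33.0% of the clustered cells.

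Counts were summed per mouse with at least 10 cells and tested with edgeR 4.0.16 in R 4.3.3 (TMM factors, filterByExpr, quasi-likelihood, all treatments in 1 fit, Benjamini-Hochberg over all genes, threshold 0.05). The fit was checked on simulated counts. T cells are all annotated clusters other than NK and cycling NK, so they include innate-like cells. Hashtag numbers do not pair mice across treatments. Intervals cover counting error only. The named genes are all 5 members in each population, genes from the up to 4 largest changes of each pathway list among those passing, and the 3 genes most like each member. Not every such pathway gene is named. The counts of 1 pathway list are not reported here, and those of the others only for the populations and comparisons named. The members and lists were chosen with earlier results of these data known. Alternatives were RLE factors, no filter, 2 groups only, DESeq2 1.42.0, summed counts of each mouse thinned to the smallest total in the population, 30 components with 40 clusters, a naming score of 0.2, leaving out NK-marked or cycling cells and leaving out each mouse.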

Additional observations from a re-analysis of the deposited data

Results flagged for a closer look

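Of 90 groups of 4 or 5 mice (5 members, 6 cell populations, 3 treatments), 6 held a mouse that stood apart from the others by Dixon's criterion, and chance alone gives about 1 in 20. In T cells of PBS mice, Stat5b was 56.7 CPM in mouse 5 (6 UMIs) and 139 to 167 CPM in the other mice. In NK cells, Stat4 was 437 CPM in PBS mouse 3 against 265 to 311 in the others, Stat5a was 38.8 CPM in mono-IL10 mouse 5 against 62.2 to 66.9, and Stat6 was 135 CPM in IL10/2-Trikine mouse 3 against 34.5 to 54.0. In tumor-like cells, Stat4 was 2.24 CPM in IL10/2-Trikine mouse 1 against 0.992 to 1.31 in the others, and Stat6 was 24.4 CPM in PBS mouse 2 against 26.8 to 27.2. Leaving out PBS mouse 5 kept the call of Stat5b in T cells against PBS, and the flagged NK and tumor-like values belong to no called difference.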

How the results depend on the processing

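The fall of Stat5b against mono-IL10 in T and NK cells kept its direction and call under the 5 other settings run for it, and the rises of macrophage-like Stat3 and Stat6 with mono-IL10 kept theirs except where noted. Under other settings 472 values kept direction and side of the threshold, 18 changed sign, 10 gained and 9 lost the call, and with 1 mouse left out 752 kept both, 20 changed sign, 8 gained and 26 lost the call. No paired analysis was possible because hashtag numbers name mice within a library and do not tie mice of different treatments to each other. Small UMI totals limit the lymphocyte and dendritic-like values.

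Counts of members passing changed as follows, and the cause was not tested. With the summed counts of each mouse thinned to the smallest total in the population, IL10/2-Trikine against PBS gave 1 in T and NK cells in place of 2 (Stat5b −0.92, adjusted p = 0.0741), mono-IL10 against PBS gave 1 in macrophage-like cells in place of 2 (Stat6 0.30, adjusted p = 0.0638), and in tumor-like cells IL10/2-Trikine gave 1 in place of 0 against PBS and against mono-IL10 (Stat6 0.17 and 0.20). In T cells, 0 passed against PBS in place of 2, and 0 against mono-IL10 in place of 1, when summed counts were thinned (too few counts to test the STAT5 genes), when NK-marked cycling T cells were left out and when cycling clusters were left out. Fitting 2 groups only gave 2 in place of 1 for IL10/2-Trikine against PBS in macrophage-like cells (Stat4 −0.45, adjusted p = 0.0323), where the fit without a low-count filter exchanged Stat3 (0.22, adjusted p = 0.0511) for Stat4 (−0.48, adjusted p = 0.0255). For IL10/2-Trikine against mono-IL10 in macrophage-like cells, no filter, DESeq2, 30 components with 40 clusters and a naming score of 0.2 each gave 1 in place of 0 (Stat3 from −0.24 to −0.21). DESeq2 gave 1 in place of 0 for mono-IL10 in dendritic-like cells, and 30 components with 40 clusters gave 1 in place of 0 for IL10/2-Trikine against PBS in tumor-like cells (Stat5b −0.17, adjusted p = 0.0381).

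With 1 mouse left out, the count for IL10/2-Trikine against PBS ranged from 0 to 2 in T and NK cells and from 0 to 2 in T cells. In macrophage-like cells IL10/2-Trikine against mono-IL10 gave 0 to 1 (1 without mono-IL10 mouse 3 or IL10/2-Trikine mouse 3). In tumor-like cells mono-IL10 against PBS gave 0 to 1 (0 without PBS mouse 5), IL10/2-Trikine against PBS 0 to 1 (1 without PBS mouse 2) and IL10/2-Trikine against mono-IL10 0 to 1 (1 without IL10/2-Trikine mouse 4). The tests between cell types gave 0 to 8 (8 without IL10/2-Trikine mouse 3).

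Uncalled log2 differences near 0 changed sign. In T and NK cells, Stat3 for mono-IL10 against PBS was −0.028 thinned and −0.00036 to 0.084 with 1 mouse left out, and between the cytokines −0.055 without a filter and −0.032 to 0.079 with 1 mouse left out, where Stat6 ranged from −0.16 to 0.080. In T cells, Stat3 for IL10/2-Trikine against PBS was −0.059 without a filter, −0.074 thinned and −0.030 to 0.12 with 1 mouse left out. Between the cytokines in T cells, Stat3 was −0.021 and Stat4 −0.085 without a filter, Stat4 ranged from −0.077 to 0.23 with 1 mouse left out, and Stat5a was 0.016 without NK-marked and 0.31 without cycling cells. In NK cells with mono-IL10, Stat3 was −0.057 and Stat4 −0.14 thinned, and Stat3 ranged from −0.0084 to 0.15 with 1 mouse left out. In macrophage-like cells, Stat5a with mono-IL10 was −0.54 thinned, −0.026 at a naming score of 0.2 and −0.068 to 0.12 with 1 mouse left out, and Stat5b with IL10/2-Trikine −0.061 thinned. In dendritic-like cells, a naming score of 0.2 gave Stat6 −0.0034 with mono-IL10, Stat4 −0.0038 with IL10/2-Trikine and Stat5a −0.034 between the cytokines, thinning gave Stat3 0.0026 between the cytokines, and with 1 mouse left out Stat5a with mono-IL10 ranged from −0.089 to 0.36 and Stat5b between the cytokines from −0.14 to 0.029. In tumor-like cells, Stat4 with IL10/2-Trikine was 0.13 with 30 components and 40 clusters and −0.29 to 0.13 with 1 mouse left out, and Stat3 between the cytokines ranged from −0.0024 to 0.042.

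Numbers of all genes rising and falling moved by over 1.5 times under some settings. In T and NK cells they were 32 and 19 for mono-IL10 against PBS (94 and 62 without a filter, 63 and 25 with DESeq2, 23 and 4 thinned), 216 and 220 for IL10/2-Trikine against PBS (123 and 136 thinned) and 181 and 225 between the cytokines (71 and 139 thinned). In T cells the same 3 comparisons gave 38 and 17 (13 and 8 without cycling cells, 10 and 1 thinned, 79 and 56 without a filter), 164 and 122 (51 and 36 without NK-marked cells, 36 and 20 without cycling cells) and 193 and 198 (75 and 92, 37 and 45). In NK cells they gave 5 and 2 (45 and 1 without a filter), 58 and 46 (22 and 22 thinned) and 22 and 34 (33 and 61 with DESeq2, 5 and 5 thinned). Thinning lowered 1538 and 1673, 1133 and 1055, and 683 and 768 in macrophage-like cells to 612 and 550, 464 and 515, and 153 and 314. In dendritic-like cells 26 and 11, 11 and 8, and 1 and 2 became 96 and 83, 62 and 99, and 60 and 111 without a filter. In tumor-like cells 562 and 287 for mono-IL10 against PBS became 845 and 429 with DESeq2 and 384 and 151 thinned. TMM scaling shifted all differences against plain CPM by at most 0.11 (mono-IL10 against PBS, tumor-like) except for −0.13 between the cytokines in dendritic-like cells.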
